A study of Mus musculus with 7 samples.

Results

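The 4 Hox gene clusters of the mouse were described as stretches of open chromatin in haematopoietic stem cells. Their members were the ATAC-seq peaks whose midpoint lay in 1 of 4 windows of the mm9 build, 116 of the 98723 peaks in the whole table. The HoxA window (chromosome 6, 52090000 to 52230000) held 29 peaks, HoxB (chromosome 11, 96040000 to 96245000) held 40, HoxC (chromosome 15, 102740000 to 102880000) held 26 and HoxD (chromosome 2, 74490000 to 74615000) held 21. Within these windows position was the only criterion for a member.

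The cells came from bone marrow of C57BL/6 mice aged 24 months, enriched for cKit, infected with a lentivirus and given to lethally irradiated recipients. After 16 weeks, donor cells that were LSK, Flt3-, CD150+, CD48-, CD45.2+ and hCD2+ were sorted for Omni-ATAC-seq, which reads out open chromatin as the sites where the Tn5 enzyme can insert adapters. The control group (4 libraries, numbered 1 to 4) carried the control virus and the Runx3 group (3 libraries, numbered 1, 3 and 4) a virus expressing the transcription factor Runx3, so both groups were aged, transduced and transplanted. Neither separate recipients nor pooling is stated per library, so every p-value measures only the spread among these 7 libraries, and that spread may be technical.

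Hox genes encode homeodomain transcription factors that give cells a position along the body axis in the embryo. Within a cluster the genes lie in order, from the low-numbered genes used early and towards the head to the high-numbered genes used later and towards the tail, and Polycomb and Trithorax group proteins keep stretches of a cluster silent or active as blocks. In blood, Hoxa9 is known as a driver of stem and progenitor cell growth and of leukaemia, Hoxb4 as a factor that expands stem cells in culture, and Hoxb5 as a marker of long-term stem cells, whereas genes of the HoxC and HoxD clusters are known mainly for limb, skin and trunk development. The members include Hoxa2 to Hoxa13, Hoxb1 to Hoxb13, Hoxc4 to Hoxc13 and Hoxd1 to Hoxd13, 38 named genes in all.

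The count table gives peaks without gene names, and the gene table used here (GRCm38.p6) is of another build. It was read only for gene order. Low-numbered genes lie at the low-coordinate end of HoxA and at the high-coordinate end of HoxB, HoxC and HoxD, and no peak was assigned to a single gene. Peak sequences in mm9 were not used here. To show the kind of sequence these windows hold, the 250 bases before the start of 4 genes are printed 5′ to 3′ from RefSeq (GRCm38.p6), with each CG pair in capitals. They are Hoxa9, on the minus strand at chr6:52227371-52227620, and Hoxb4 (chr11:96318017-96318266), Hoxc4 (chr15:103034145-103034394) and Hoxd4 (chr2:74721728-74721977), on the plus strand. Hoxa9 and Hoxb4 are the genes best known in blood, and Hoxc4 and Hoxd4 are the counterparts of Hoxb4 in the other clusters. These positions cannot be set beside the mm9 peaks.
Hoxa9: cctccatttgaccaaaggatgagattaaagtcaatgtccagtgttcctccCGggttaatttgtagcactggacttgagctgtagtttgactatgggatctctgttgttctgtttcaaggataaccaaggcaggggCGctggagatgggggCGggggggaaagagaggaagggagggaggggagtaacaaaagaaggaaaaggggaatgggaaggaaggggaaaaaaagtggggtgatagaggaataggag
Hoxb4: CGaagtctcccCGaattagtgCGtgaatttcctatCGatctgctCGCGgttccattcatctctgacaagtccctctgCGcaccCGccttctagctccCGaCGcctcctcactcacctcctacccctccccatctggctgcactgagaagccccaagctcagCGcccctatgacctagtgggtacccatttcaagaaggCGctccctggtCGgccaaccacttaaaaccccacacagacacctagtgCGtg
Hoxc4: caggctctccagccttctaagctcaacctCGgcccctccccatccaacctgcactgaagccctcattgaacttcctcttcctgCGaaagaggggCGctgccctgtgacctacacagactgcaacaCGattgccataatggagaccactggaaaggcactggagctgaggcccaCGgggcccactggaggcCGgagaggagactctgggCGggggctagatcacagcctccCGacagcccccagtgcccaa
Hoxd4: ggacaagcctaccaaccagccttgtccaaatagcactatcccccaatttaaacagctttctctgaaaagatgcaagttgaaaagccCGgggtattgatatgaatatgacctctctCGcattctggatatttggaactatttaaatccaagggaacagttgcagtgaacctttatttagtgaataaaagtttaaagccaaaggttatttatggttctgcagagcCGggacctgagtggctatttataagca

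The 4 stretches differed in CG pairs, with 14 before Hoxb4, 8 before Hoxc4 and 3 each before Hoxa9 and Hoxd4. RefSeq promoters were at hand for 22 of the 38 genes (24 promoters). These were 10 promoters of HoxA, 10 of HoxD, 3 of HoxB and 1 of HoxC, so they mainly describe HoxA and HoxD. Their median was 12.5 CG pairs in 250 bases against 6 over all 32851 mouse promoters in the table, and 19 of the 24 (79.2%) lay above that median, as did 46.3% of all promoters. Hoxa13, the last gene of its cluster, had the most of the Hox promoters at hand, 35, and 1 of the 2 promoters of Hoxd11 the fewest, 2. The core RUNX motif TGTGGT, searched on both strands, was present in 1 of the 24 (4.17%), that of Hoxd10, and in 14.0% of all promoters. A match is a description of letters in this window and not a binding site, and a missing match says nothing of binding elsewhere.

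Total counts in peaks ran from 1738164 to 3758422 per library, so that the summed count of a cluster was between 152 and 1250 reads per library. Levels below are CPM, a count scaled to its library's total with the TMM factor applied. Control 1, control 2 and Runx3 1 form library set 1 and the other 4 libraries set 2, separated by 57 peaks at which the sets were at least 8-fold apart. Of these, 0 lie in a Hox window. The sets were found from these counts and are not named in the labels. Vector results of cluster sums, sides and several peaks are also given within each set. In set 1 the only Runx3 library is Runx3 1, so its values have no spread among Runx3 libraries. Markers of the sorted cells were not examined, since no peak was assigned to a gene.

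The clusters were open to different degrees, in the order HoxA, HoxB, HoxD, HoxC. Summed over its peaks and divided by the length of the window, HoxA held 2.42 ± 0.0830 CPM per kb (SD, n = 7 libraries), HoxB 1.47 ± 0.112, HoxD 0.705 ± 0.0650 and HoxC 0.610 ± 0.0757. HoxA thus took 41.7% of the accessibility of the 4 clusters and HoxB 37.0%, while HoxC took 10.5% and HoxD 10.8%. Within libraries HoxA stood 1.66-fold above HoxB, 3.996-fold above HoxC and 3.45-fold above HoxD. HoxB stood 2.41-fold above HoxC and 2.08-fold above HoxD. All of these differences were seen in 7 of 7 libraries, with an exact sign-flip permutation p of 0.0156 for each of the 6 pairs, which is the smallest that 7 libraries can give and is unchanged by adjustment over the pairs (two-sided). HoxC lay 1.16-fold below HoxD, also in 7 of 7 libraries and with the same p, but in the library where they were closest the log2 ratio was only -0.0083. These tests show that the order repeats between libraries, and do not compare cell types.

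The density of peaks followed this order except that HoxC lay above HoxD. HoxA held 2.07 peaks per 10 kb, HoxB 1.95, HoxC 1.86 and HoxD 1.68. The share of the window covered by peaks followed the order, at 9.36% in HoxA, 7.89% in HoxB, 7.24% in HoxD and 6.62% in HoxC. The strength of the peaks differed more. The median peak had 7.90 CPM in HoxA, 4.89 in HoxB, 4.21 in HoxD and 2.41 in HoxC, against 4.33 over all peaks of the table. Per kb of peak, accessibility was 25.9 CPM in HoxA, 18.6 in HoxB, 9.74 in HoxD and 9.21 in HoxC. The low-count filter kept 24 of 29 peaks in HoxA, 27 of 40 in HoxB, 11 of 21 in HoxD and 7 of 26 in HoxC, while it kept 58.2% of all peaks. HoxC was a window of many weak peaks.

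Hox peaks were also narrow and, outside HoxA, seldom among the strongest. Their median width was 335 bases, against 388 for all peaks, and 3 of 116 (2.59%) were at least 1 kb wide, against 9.73% of all peaks. Only 5 (4.31%) ranked in the most accessible 10% of all peaks, 3 in HoxA (10.3% of its peaks) and 2 in HoxB (5%). The windows were nevertheless rich in peaks. Of all tiles of the same length on the autosomes and X that hold a peak, 0.175% had as many peaks as HoxA, 0.129% as many as HoxB, 0.539% as many as HoxC and 1.54% as many as HoxD. By summed accessibility the shares were 1.596% and 6.25% for HoxA and HoxB but 31.9% and 28.0% for HoxC and HoxD.

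**Figure D1:**
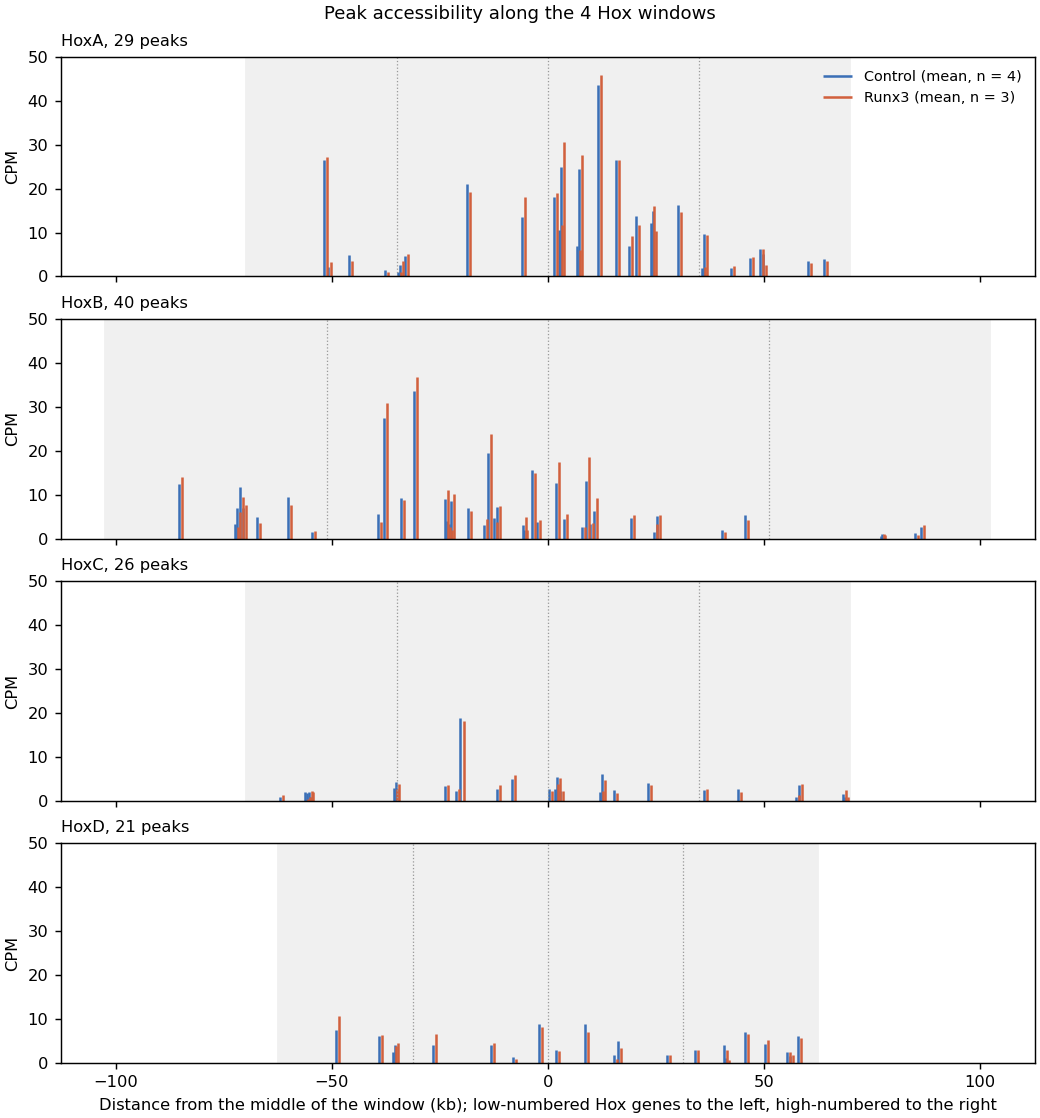
Mean CPM of each of the 116 peaks in control (4 libraries) and Runx3 (3 libraries), against distance in kb from the middle of each window (grey), with dotted lines between the segments and the low-numbered genes to the left. HoxA peaks reach 44.6 CPM on average over all libraries and crowd just right of the middle, HoxB peaks reach 35.04 left of the middle, and 1 HoxC peak and 0 HoxD peaks average above 10 CPM.

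The most open part did not lie at the same place in all 4 clusters. Each window was cut into 4 segments of equal length, numbered from the low-numbered to the high-numbered genes. In HoxA, segment 3 (52160000 to 52195000) held 66.0% of the accessibility of the window, at 6.39 ± 0.276 CPM per kb (SD, n = 7), while the other segments held 1.001 ± 0.160 (segment 1), 1.28 ± 0.247 (segment 2) and 1.02 ± 0.105 (segment 4). In HoxB the open part was segment 2 (96142500 to 96193750), with 57.1% of the window and 3.35 ± 0.337 CPM per kb, followed by segment 3 (1.32 ± 0.211), segment 1 (1.08 ± 0.0948) and segment 4 (0.115 ± 0.0295). HoxC and HoxD were flatter. As in HoxB, segment 2 was the highest of HoxC (1.05 ± 0.214), with 43.0% of the window, and segment 1 was the lowest (0.279 ± 0.0652). In HoxD the segments ran only from 0.588 ± 0.120 (segment 3) to 0.914 ± 0.104 (segment 4, the side of Hoxd13).

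The sides of a window were cut at the middle of its length. Genes were not placed in mm9, so a side need not hold only low-numbered or only high-numbered genes. In HoxB the high-numbered side takes in segment 4 (0.115 ± 0.0295 CPM per kb) and the widest stretch without a peak. Compared on either side of the middle, HoxA was more open on its high-numbered side, 3.28-fold (3.71 ± 0.149 against 1.14 ± 0.147 CPM per kb), and HoxB on its low-numbered side, 3.12-fold (2.22 ± 0.173 against 0.716 ± 0.105). Both held in 7 of 7 libraries, with an exact sign-flip permutation p of 0.0156 and an adjusted p of 0.0312 over the 4 clusters (two-sided). The sides of HoxC differed 1.18-fold in favour of the low-numbered side in 6 of 7 libraries (exact permutation p = 0.0469, adjusted p = 0.0625) and did not pass. The sides of HoxD did not differ beyond the spread between libraries (exact permutation p = 0.172, adjusted p = 0.172, 6 of 7 libraries higher on the high-numbered side). With only the peaks that passed the low-count filter, HoxC passed at a log2 ratio of 0.59 (exact permutation adjusted p = 0.0208) and the direction in HoxD turned (0.32). With control 1, 3 or 4 or Runx3 3 or 4 left out, the adjusted p of HoxA and HoxB was 0.0625 in the same direction, 0.0312 being the smallest unadjusted exact permutation p that 6 libraries allow, while HoxC passed without control 2 and HoxD without Runx3 1 (exact permutation adjusted p = 0.0417 for both).

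**Figure D2:**
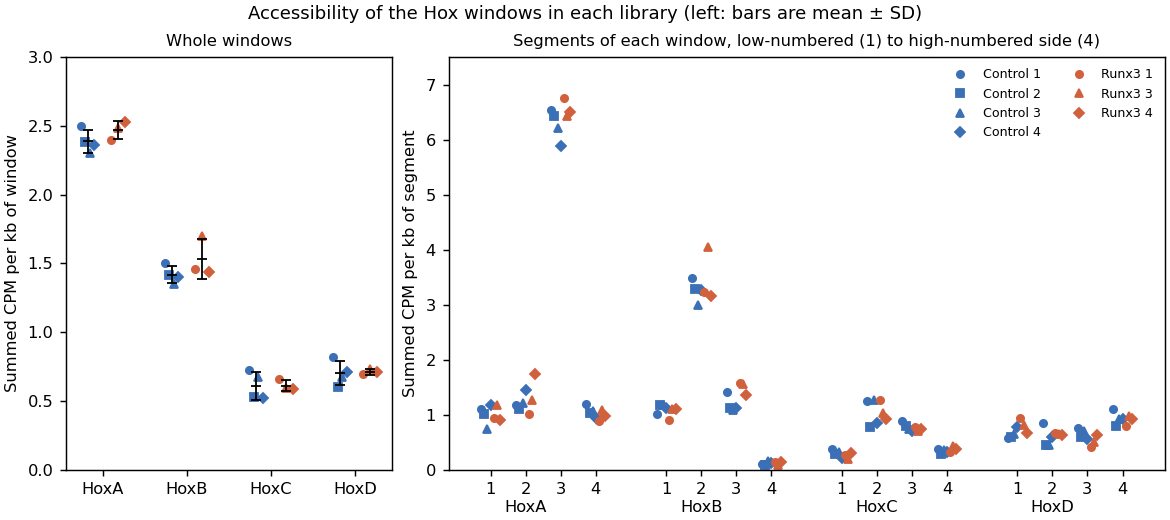
Summed CPM per kb in each of the 7 libraries, for whole windows (left, bars are mean ± SD within a group) and for the 4 segments of each window from the low-numbered to the high-numbered side (right). Segment 3 of HoxA lies between 5.89 and 6.75 in every library, above every other segment, and segment 2 of HoxB between 3.001 and 4.04.

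The open part of HoxA was a run of 12 peaks between 52161563 and 52190745, all of which passed the low-count filter, with mean levels from 6.58 to 44.6 CPM. The strongest, at 52171500 to 52172488, had 51.3, 39.7, 43.6 and 39.9 CPM in controls 1 to 4 and 38.7, 47.4 and 51.6 in Runx3 1, 3 and 4. The groups overlapped, and the peak stood above 95.6% of all peaks. The next, at 52163129 to 52163598, averaged 27.3 CPM. In the low-numbered part, before this run, 3 peaks averaged above 10 CPM. The peak at 52108153 to 52109068 averaged 26.8 CPM and was the only strong peak of segment 1, whose other 3 peaks averaged at most 4.20 CPM. The peak at 52140984 to 52142449, with 1465 bases the widest of the Hox peaks, averaged 20.3 CPM. The peak at 52154168 to 52154688, named here after its values were seen, averaged 15.6 CPM. Beyond the run, on the side of Hoxa11 and Hoxa13, the 8 peaks of segment 4 had a median of 3.96 CPM.

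HoxB was strongest between 96144446 and 96181580, where 17 peaks lay. The peak at 96172899 to 96173590 had 38.9, 35.03, 27.1 and 33.6 CPM in controls 1 to 4 and 34.2, 44.3 and 32.2 in Runx3 1, 3 and 4, and the groups overlapped. The peak at 96179470 to 96180679, the widest of the cluster at 1209 bases, averaged 29.0 CPM, and that at 96155634 to 96156405 averaged 21.3 CPM. The far end, on the side of Hoxb13, was nearly without signal: the 4 peaks of segment 4 had at most 11 reads in any library, none passed the filter, and the widest stretch without a peak in the cluster, 31255 bases from 96065006 to 96096261, borders them. Hoxb13 is the cluster's outlying gene, known for its roles in the hindgut and prostate.

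In HoxC a single peak stood out, at 102829438 to 102830313, with 21.7% of the accessibility of the window. It had 29.0, 10.01, 23.4 and 12.7 CPM in controls 1 to 4 and 21.1, 18.2 and 15.3 in Runx3 1, 3 and 4, so that the controls spread more widely than the groups differed. Controls 1 and 3 were high and controls 2 and 4 low. The next peaks, at 102796847 to 102797213 and 102817869 to 102818219, averaged 5.48 and 5.35 CPM. HoxD had no such peak. Its strongest, at 74600842 to 74601792 in segment 1, the side of Hoxd1, averaged 8.82 CPM, followed by the peaks at 74553824 to 74554351 (8.59) and 74543135 to 74544060 (8.04).

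Around the clusters, all 8 flanks of equal length held fewer peaks than the cluster they bordered, but the 24 peaks on the low-numbered side of HoxC came close to its 26. HoxA had 29 peaks and its flanks 13 and 10, at 0.832 and 0.403 CPM per kb. HoxB had 40 and its flanks 14 and 15, at 0.317 and 0.927 CPM per kb. Counting both flanks together HoxD lay among the fewest peaks, with 21 peaks between flanks of 1 (low-numbered side) and 4 peaks. HoxC sat at an edge: the flank beyond Hoxc13 held 2 peaks and 0.0225 CPM per kb, and the flank beyond Hoxc4 was more open than the cluster itself, at 1.01 CPM per kb against 0.610. These flanks are described and were not tested.

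The labels set the Runx3 virus against the control virus, and the clusters were compared between them. No Hox peak passed the test: 0 were higher and 0 lower with Runx3 among 69 tested (edgeR quasi-likelihood test, lowest adjusted p = 0.46), where 0.073% of all 57504 tested peaks passed (0.033% higher and 0.04% lower). DESeq2 also called 0 in either direction, against 2 higher and 1 lower over the whole table. At an unadjusted p under 0.05 in edgeR, 4 Hox peaks were higher (5.80% of the 69, against 3.91% of all tested peaks) and 2 lower (2.90% against 4.4%). DESeq2, run without the low-count filter, gave 0 higher and 1 lower of 116 Hox peaks, against 1643 and 1569 of all 98723. The edgeR count was 2 higher without control 2 (of 66 Hox peaks, against 1861 of all 54282). It was also 2 higher without control 3 (of 63, against 1932 of 53913). Without Runx3 4 it was 0 lower (of 74, against 2091 of 62367). The fitted log2 fold change was above 0 at 38 of 69 Hox peaks (55.1%) and at 48.8% of all tested peaks, and its median was 0.022 and -0.0078. By cluster the median was 0.021 in HoxA, 0.15 in HoxB, -0.020 in HoxC and -0.0041 in HoxD. Single peaks ranged from -0.92 to 0.70, with a median SE of 0.29. Even the largest of these differences, -0.92 ± 0.39 (SE), did not pass after adjustment over 57504 peaks (edgeR adjusted p = 0.485). With 3 against 4 libraries the test therefore cannot show that changes of such sizes are absent.

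**Figure D3:**
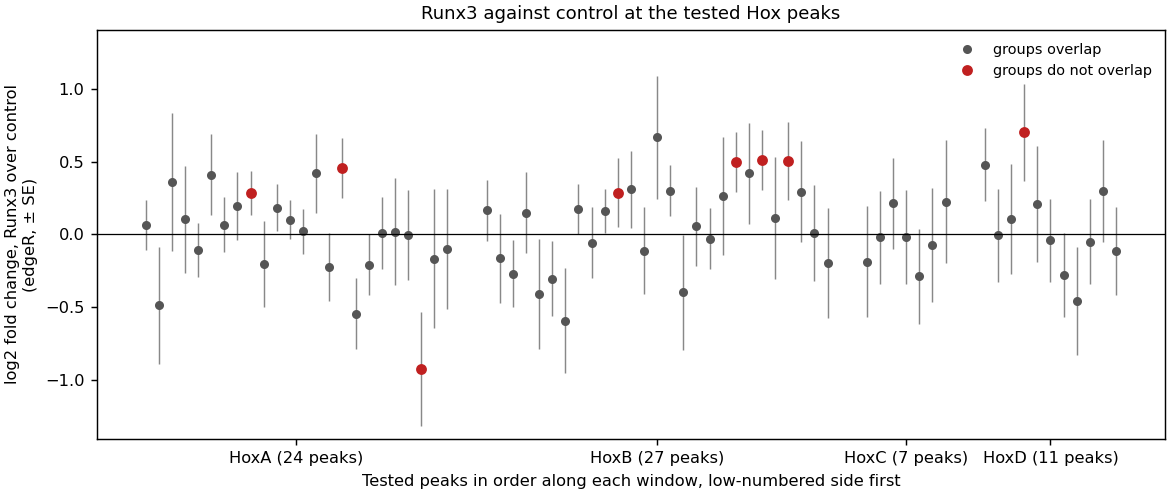
Fitted log2 fold change with Runx3 (edgeR, ± SE) of the 69 tested peaks, ordered along each window from the low-numbered side. Values scatter around 0 from -0.92 to 0.70, none passes the adjusted threshold, and the 8 peaks in red are those whose groups do not overlap, 7 of them higher with Runx3.

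Sums over whole clusters had smaller errors. HoxA held 2.50, 2.38, 2.30 and 2.36 CPM per kb in controls 1 to 4 and 2.40, 2.49 and 2.53 in Runx3 1, 3 and 4, a log2 fold change of 0.050 ± 0.035 (SE). The groups overlapped, since control 1 lay above Runx3 1 and Runx3 3. HoxB held 1.501, 1.41, 1.35 and 1.404 in controls and 1.46, 1.699 and 1.44 with Runx3, a log2 fold change of 0.11 ± 0.074 that was 0.031 without Runx3 3. The groups overlapped here too, and Runx3 3 stood above all other libraries. HoxC held 0.610 ± 0.102 in controls (SD, n = 4) and 0.610 ± 0.0395 with Runx3 (SD, n = 3), which is 0.012 ± 0.15 on the log2 scale (SE), and HoxD held 0.702 ± 0.0904 and 0.710 ± 0.0188, or 0.024 ± 0.11. None differed beyond the spread between libraries (two-sided exact permutation p = 0.171, 0.286, 0.914 and 0.80 in the order HoxA to HoxD, adjusted p = 0.571, 0.571, 0.914 and 0.914). With 3 against 4 libraries 0.0571 is the smallest p possible, so the test cannot pass at 0.05. Without the TMM factors the log2 fold changes of HoxA and HoxB were 0.066 and 0.12 (exact permutation p = 0.0571, adjusted p = 0.114 for both). Every Runx3 library then lay above every control, so the overlap in HoxA and HoxB depends on the normalization. Within library set 1, with TMM, the log2 fold changes were -0.027 for HoxA, 0.0030 for HoxB, 0.084 for HoxC and -0.022 for HoxD. Within set 2 they were 0.10, 0.18, -0.0079 and 0.054 in the same order.

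The balance between the sides of a window was compared in the same way. In HoxB the log2 ratio of the low-numbered to the high-numbered side differed by -0.28 ± 0.12 (SE, Runx3 minus control), and in HoxD by 0.43 ± 0.20. Neither passed (exact permutation p = 0.114 for each, adjusted p = 0.229 over the 4 clusters), and the groups overlapped in both. Without Runx3 1 the difference was -0.18 in HoxB and 0.25 in HoxD. Within set 1 it was -0.46 in HoxB and 0.82 in HoxD, and within set 2 -0.21 and 0.23. In HoxB this came with the high-numbered side, at 0.648 ± 0.0720 CPM per kb in controls (SD, n = 4) and 0.807 ± 0.0572 with Runx3 (SD, n = 3), while the low-numbered side had 2.19 ± 0.0707 and 2.26 ± 0.279. In HoxD the low-numbered side had 0.612 ± 0.0985 in controls and 0.722 ± 0.0733 with Runx3, and the high-numbered side 0.792 ± 0.102 and 0.697 ± 0.0919. HoxA (0.023 ± 0.18) and HoxC (0.024 ± 0.19) had differences near 0, each smaller than its error (exact permutation p = 0.857 for both). Their signs differed between the sets, at -0.17 and 0.078 in sets 1 and 2 for HoxA and 0.33 and -0.16 for HoxC.

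Among the 69 tested Hox peaks, 7 (10.1%) had every Runx3 library above every control, where 4.2% of all tested peaks did, and 1 (1.45%) had every Runx3 library below, where 4.69% did. Among the 47 Hox peaks under the filter 0 lay above, where 4.38% of all 41219 peaks under the filter did, and 3 (6.38%) lay below, where 3.69% did, 2 of them in HoxB and 1 in HoxC. These 3, at 96164877, 96165304 and 102865707, had control means of 3.33, 4.02 and 2.08 CPM and Runx3 means of 2.03, 2.70 and 0.267, and are named after their values were seen. Of the 8 tested peaks 0 passed the adjusted test and the other 3 were not tested, so the counts are a description.

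Of the 7, 3 lay in segment 3 of HoxB within 9.19 kb, from 96131246 to 96140431, in a stretch with 5 tested peaks. The peak at 96132911 to 96133823 had 15.7, 8.58, 13.0 and 14.8 CPM in controls 1 to 4 and 20.5, 17.9 and 17.3 in Runx3 1, 3 and 4. Every Runx3 library was above the highest control, control 1. The log2 fold change was 0.51 ± 0.21 (SE, edgeR adjusted p = 0.46), and 0.79 within set 1 and 0.34 within set 2. The peak at 96140109 to 96140431 had 16.1, 10.7, 12.0 and 11.4 CPM in controls and 18.2, 17.1 and 16.9 with Runx3, or 0.50 ± 0.20 (edgeR adjusted p = 0.46). Control 1 again came closest to the Runx3 libraries. The peak at 96131246 to 96131635 had 4.75, 7.51, 6.65 and 6.61 CPM in controls and 8.55, 8.54 and 10.3 with Runx3, or 0.50 ± 0.27 (edgeR adjusted p = 0.64), and here control 1 was the lowest. In segment 3 of HoxB as a whole 7 of 8 tested peaks had a positive log2 fold change, with a median of 0.36. Its summed level was 1.18 ± 0.157 CPM per kb in controls and 1.496 ± 0.118 with Runx3. Control 1 (1.42) overlapped Runx3 4 (1.36). The segment was singled out after its values were seen and was not tested. One more HoxB peak, at 96165859 to 96166293 in segment 2 and named here after its values were seen, had 9.97, 7.86, 9.58 and 8.72 CPM in controls and 11.4, 11.3 and 10.3 with Runx3, or 0.29 ± 0.23 (edgeR adjusted p = 0.815).

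In HoxA, 2 neighbouring peaks had fitted fold changes of opposite sign, neither past the threshold. At 52183911 to 52184388 the controls had 14.7, 12.2, 10.6 and 10.8 CPM and the Runx3 libraries 14.8, 17.9 and 15.7, or 0.46 ± 0.21 on the log2 scale (SE, edgeR adjusted p = 0.54). Control 1 and Runx3 1 were nearly level, and the log2 fold change was 0.15 within set 1 and 0.64 within set 2. At 52184426 to 52185085, 38 bases further on, the controls had 13.8, 13.6, 21.8 and 10.3 CPM and the Runx3 libraries 12.0, 9.71 and 9.49, or -0.54 ± 0.24 (edgeR adjusted p = 0.54). Here the groups overlapped, control 3 stood far above the rest, and without it the log2 fold change was -0.26. Within sets 1 and 2 it was -0.19 and -0.74. The peak at 52163129 to 52163598, the second strongest of the cluster, had 22.8, 26.8, 23.7 and 26.4 CPM in controls and 33.6, 28.7 and 29.3 with Runx3 (0.28 ± 0.15, edgeR adjusted p = 0.65), and log2 fold changes of 0.43 and 0.21 within sets 1 and 2.

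The lowest log2 fold change of the tested Hox peaks was at 52210021 to 52210472 in segment 4 of HoxA, the side of Hoxa11 and Hoxa13. It had 6.65, 4.29, 4.79 and 5.02 CPM in controls 1 to 4 and 2.28, 3.49 and 2.06 in Runx3 1, 3 and 4, or -0.92 ± 0.39 (SE, edgeR adjusted p = 0.485). Every Runx3 library was below every control, but the Runx3 levels rest on 4, 9 and 5 reads. The highest of the tested peaks was in HoxD, at 74578340 to 74578994. It had 4.75, 2.86, 3.19 and 5.02 CPM in controls and 7.98, 5.05 and 6.60 with Runx3, or 0.70 ± 0.33 (edgeR adjusted p = 0.57). Control 4 and Runx3 3 were almost equal there, and the log2 fold change was 1.10 within set 1 and 0.495 within set 2. The strongest HoxD peak, at 74600842 to 74601792, had 8.55, 6.43, 7.18 and 7.93 CPM in controls and 12.5, 10.9 and 8.25 with Runx3, or 0.48 ± 0.25 (edgeR adjusted p = 0.64), and its groups overlapped through control 1 and Runx3 4. Within sets 1 and 2 it had 0.76 and 0.34. In HoxC the smallest p was at 102796847 to 102797213, at -0.29 ± 0.32 on the log2 scale (SE, edgeR adjusted p = 0.89), with -0.66 and -0.13 within sets 1 and 2. Leaving out single libraries moved it between -0.54 (without Runx3 3) and -0.18 (without Runx3 4).

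**Figure D4:**
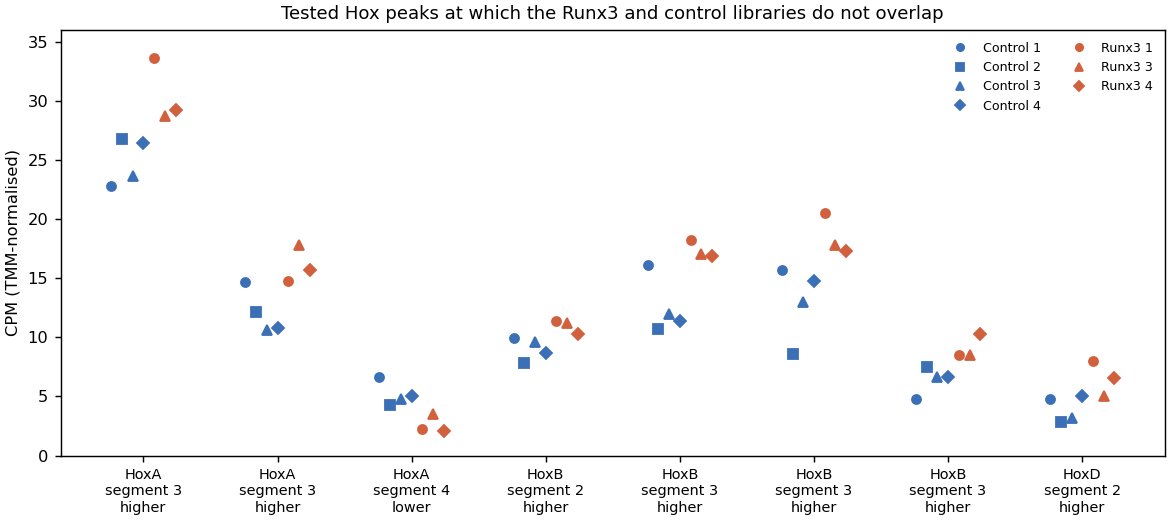
CPM in each of the 7 libraries at the 8 tested Hox peaks whose groups do not overlap, named by cluster, segment and direction with Runx3, in order along each window from the low-numbered side. The gap between the groups is narrow at most of them: at the HoxA peak in second place control 1 has 14.7 and Runx3 1 has 14.8, and at the HoxD peak control 4 has 5.02 and Runx3 3 has 5.05.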

How the data were processed

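Omni-ATAC-seq was measured in 4 control and 3 Runx3 libraries. The authors deposited 1 table of unnormalized counts, reads per peak and library. The submitters' processing notes name MACS2, Bowtie2, Picard, SAMtools, FastQC and Trim Galore, and the mm9 build. For versions, the making of the shared peak set and any shift of read ends, the steps are not given in the labels. A peak start may be off by 1 base, since the base of counting is not stated.

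Counts of the whole table were fitted with edgeR 4.0.16 in R 4.3.3 (filterByExpr with minimum count 10 and minimum total 15, TMM, robust quasi-likelihood test without a block, Benjamini-Hochberg adjustment over 57504 peaks, threshold 0.05). Each SE was taken as the absolute log2 fold change over the root of the F statistic. The code was tested on simulated data. CPM of all peaks use these TMM factors. Cluster sums were compared by two-sided exact permutation over the 35 ways of choosing 3 of 7 libraries, and clusters or sides by exact sign flips of within-library log2 ratios. Library sets are the division of the libraries with the most peaks at least 8-fold apart (0.5 CPM added).

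Peaks were named by rule: per cluster the 3 highest by mean CPM, the widest and the smallest p, then the 10 smallest p overall. Windows, lists and rules were chosen with earlier results of these data known. Alternatives covered normalization, filters, DESeq2 1.42.0, window edges, depth, library sets, blocking on replicate number, and omission of single libraries. Genes were not assigned to peaks.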

Additional observations from a re-analysis of the deposited data

How the results depend on the processing

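Calls of 0 higher and 0 lower Hox peaks were the same in all alternatives run, including an adjusted p under 0.10. The 6 ratios between clusters kept their direction and threshold with filtered peaks only, any overlap with the window, windows widened by 10 kb and each library left out. With filtered peaks only the log2 fold change of HoxC was -0.027. Of sides, that of HoxC was then 0.59 and that of HoxD 0.32. The change with Runx3 of the sides of HoxB was then -0.29 (exact permutation p = 0.0571, adjusted p = 0.229), without overlap of the groups. Within set 1 the changes of HoxA and HoxB were -0.027 and 0.0030 and those of the sides of HoxB, HoxC and HoxD -0.46, 0.33 and 0.82. Within set 2 HoxA had 0.10. Without TMM the changes of HoxA and HoxB were 0.066 and 0.12, and their groups no longer overlapped (exact permutation p = 0.0571, adjusted p = 0.114 for both). At an unadjusted p under 0.05, 4 higher and 2 lower peaks became 0 and 1 of 116 with DESeq2 (1643 and 1569 of all 98723). With the total count as a covariate they became 2 and 3 of 69 (edgeR, 2820 and 2906 of all 57504).

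With single libraries omitted, 2 to 5 Hox peaks were higher and 0 to 2 lower at an unadjusted p under 0.05 (edgeR). The fewest higher came without control 2 or 3, and 0 lower without Runx3 4. Over all 53913 to 62859 peaks then tested, 1681 to 2842 were higher and 1819 to 3348 lower at that level. Cluster changes ran from 0.033 to 0.072 (HoxA), 0.031 to 0.15 (HoxB), -0.061 to 0.098 (HoxC) and -0.045 to 0.10 (HoxD), and changes of sides from -0.076 to 0.16, -0.37 to -0.18, -0.094 to 0.13 and 0.25 to 0.58. Ratios of sides ran from -1.77 to -1.67 (HoxA), 1.597 to 1.701 (HoxB), 0.19 to 0.28 (HoxC) and -0.29 to -0.13 (HoxD). With 6 libraries the smallest exact p is 0.0312, so that the adjusted values of HoxA and HoxB were 0.0625 without control 1, 3 or 4 or Runx3 3 or 4. HoxC passed without control 2 and HoxD without Runx3 1 (exact permutation adjusted p = 0.0417 for both).

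Of 20 named peaks, 12 kept their direction in every setting. Of the other 8, 0 passed the threshold in any setting. The peak at 102829438 had 0.0013 with the set as a term, 0.17 in set 1 and from -0.21 to 0.19 with a library left out. In set 1 those at 96172899, 52108153 and 52171500 had -0.11, -0.22 and -0.22. In set 2 those at 74543135, 74553824 and 52140984 had 0.0089, 0.23 and 0.013. With a library left out, 74553824 ran from -0.41 to 0.14, 52140984 from -0.18 to 0.016, 52108153 from -0.092 to 0.17 and 96179470 from -0.14 to 0.42. For these differences the cause was not tested.

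A replicate block left 2 of 69 Hox peaks higher at an unadjusted p under 0.05 (edgeR), against 2075 of all 57504. It gave -0.052 for HoxC, -0.045 for HoxD, and -0.013 and -0.066 for the sides of HoxA and HoxC. Same-numbered libraries deviated together with correlations of 0.12, 0.11 and 0.067, and other pairs with -0.14 to 0.10. Each Runx3 library correlated most with the control of its own number. The correlations were low and the labels do not say what a number marks, so the block was kept as an alternative. Over all tested peaks the block gave 30 higher and 71 lower calls, against 19 and 23 without it (edgeR).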

Other observations

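At the neighbouring HoxA peaks 52183911 to 52184388 and 52184426 to 52185085, chosen after their values were seen, the sum of both was 27.0 ± 4.76 CPM in controls (SD, n = 4) and 26.5 ± 1.23 with Runx3 (SD, n = 3). The ratio of the first to the second was 1.07, 0.895, 0.488 and 1.05 in controls 1 to 4 and 1.24, 1.84 and 1.65 in Runx3 1, 3 and 4. The ratios of the groups did not overlap, with control 1 the nearest to Runx3 1, while the sums overlapped. This difference was not tested.

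The share of all counts that fell in the 4 Hox windows was 0.0829%, 0.0772%, 0.0788% and 0.0785% in controls 1 to 4 and 0.0821%, 0.0870% and 0.0826% in Runx3 1, 3 and 4. The windows held 0.118% of all peaks. The means were 0.0794% ± 0.00246 (SD, n = 4) and 0.0839% ± 0.00270 (SD, n = 3), and the groups overlapped through control 1 (two-sided exact permutation p = 0.171).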
